A study of Mus musculus with 8 samples.

Results

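The lysosome of cultured mouse muscle stem cells was read through Gpnmb and a list of lysosomal genes. The list held 45 genes chosen by name: Gpnmb, endolysosomal membrane proteins, cathepsins, glycosidases and sulfatases, lipid-handling enzymes and soluble cofactors, proton pump subunits, and the MiT/TFE transcription factors. Of these, 44 had a row among the 20976 genes of the deposited table, and 42 were among the 12910 genes tested. The expression of Ctss, which encodes cathepsin S, was not analysed here. Ctsk and Atp6v0d2 were not tested, since fewer than 4 libraries reached 1 CPM, the value scaled to the total of its library.

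Total RNA was sequenced from MuSCs, the muscle stem cells, purified by FACS from Chd4LoxP/LoxP mice, grown for a short time with FCS and bFGF, and then infected. The Cre group received an adenovirus with CRE recombinase, which removes exons 12 to 21 of Chd4. The GFP group, its control, carries the same floxed alleles and received an adenovirus with GFP. Each group held 4 libraries from 4 mice, and the age and sex of the mice are not given in the labels. The libraries are numbered 1 to 4 in each group, and no label says whether a number stands for 1 mouse.

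Lysosomes are the acidic compartment in which proteins, glycans and lipids taken up or turned over by the cell are broken down. A vacuolar proton pump keeps them acidic and soluble hydrolases do the cutting. Membrane proteins such as the LAMPs line the inner face, and other membrane proteins export the products. Many of their genes carry an E-box type element, CACGTG, in the promoter, to which TFEB, TFE3 and MITF bind when these factors enter the nucleus. In muscle stem cells, autophagy and lysosomal turnover are known for keeping the resting state and for supplying material upon activation. Gpnmb, a heavily glycosylated membrane protein of lysosomes and melanosomes, is known as a gene induced in macrophages with burdened lysosomes.

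The totals of 27.9 to 28.9 M reflect the authors' scaling, and the original depth estimated from the low values was 26.3 to 30.4 M reads in Cre and 23.3 to 38.0 M in GFP. Normalised reads of Chd4 ranged over 3686 to 5480 in Cre and 15904 to 20121 in GFP, a log2 change of -1.88 ± 0.09 (SE; paired limma, adjusted p = 1.10e-06). Reads from the exons left in place still count towards the gene. Same-numbered Cre and GFP libraries deviated from their group means together, with correlations of 0.792 to 0.927, against -0.628 to 0.550 for other pairings. The replicate number was a block in the fit, a pairing set beforehand with earlier results of these data known. Only the values bear on it, since no label says what a number stands for. The replicate 1 libraries of both groups stood apart for most of the lysosomal genes. The counts of called members and the changes of Gpnmb, Cd68 and Grn are also given without these libraries.

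Lysosomal genes were called higher in Cre more often than lower. In the paired fit (limma on log2 of the value plus 1, Benjamini-Hochberg adjusted p under 0.05), 20 of 42 rose (47.6%), beside 22.2% of all genes tested. Only 3 fell (7.14%), namely Arsb, Ids and Lipa, beside 21.7% of all genes. The median log2 change was 0.12 over the 42 genes and -0.0008 over all genes. All 23 called genes moved in 1 direction in 4 of 4 pairs. The calls were made on these same pairs, so this adds no support to them. Sizes were small: the 20 increases ran from a log2 change of 0.12 to 1.80, and Gpnmb and Cd68 alone passed an absolute log2 change of 1, which 2.93% of all genes did. The other 19 genes lay between -0.16 and 0.15. Members moved together across libraries, so their calls are not independent of each other, and no test was made over the list.

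These calls rest on the pairing. Without the block, 1 of 42 genes (Arsb) was called, beside 1.08% of all genes, and the unpaired limma adjusted p of the other 41 was 0.0870 or higher. At an unadjusted p under 0.05 in that fit, 2 were higher (Ctsh and Mitf) and 2 were lower (Ids and Arsb). Of all 12910 genes, 956 were higher and 1201 lower at that threshold, so these 4 genes do not stand out from the rest. The Cre and GFP libraries did not overlap for 3 of 42 genes, Mitf above and Arsb and Ids below the GFP libraries, beside 10.6% of all genes. With replicate 1 left out of both groups, the paired fit called 21 higher and 3 lower, and all 20 increases remained. Over all 12910 genes that fit called 2648 higher and 2365 lower. Not every omission kept the increases: without replicate 2, 3 or 4 the members called higher were 16, 19 and 16.

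**Figure D1:**
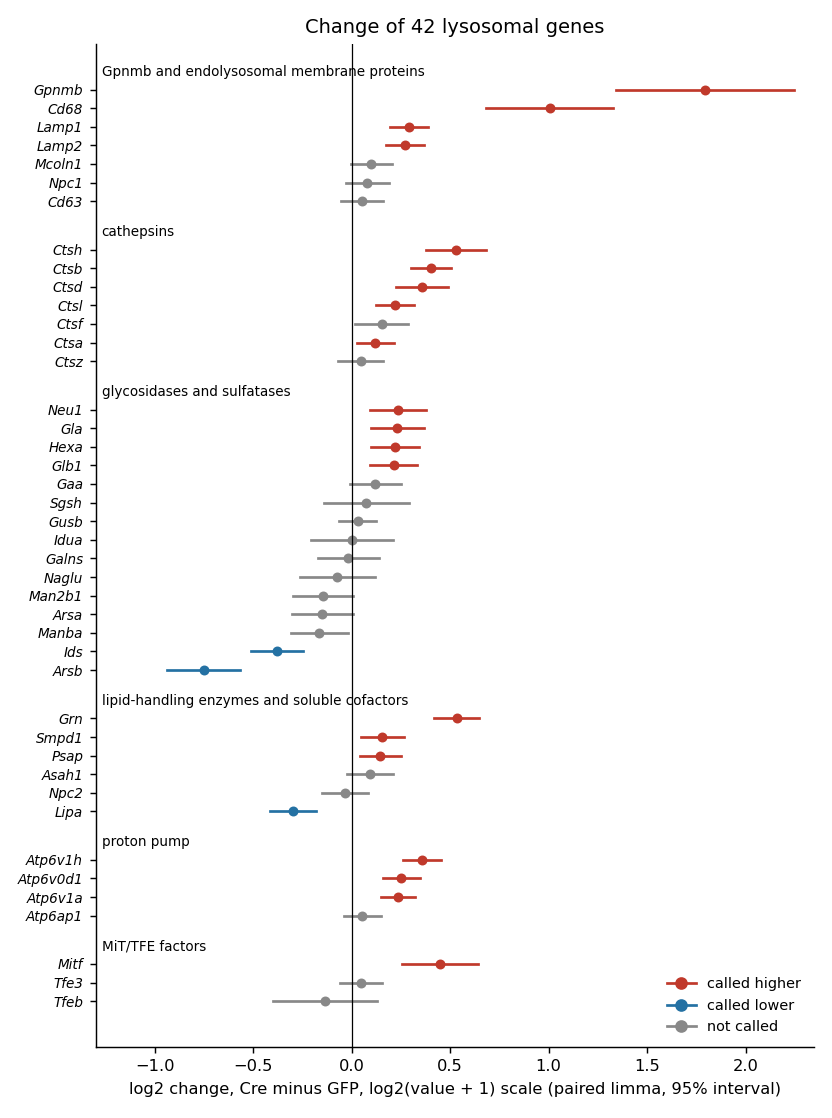
Log2 change (Cre minus GFP, on the log2 of value plus 1 scale) of each of the 42 tested genes by role, with its 95% interval from the paired limma fit. Points right of 0 are higher in Cre: 20 genes were called higher (red), 3 lower (blue) and 19 were not called (grey), with Gpnmb at 1.80 and Arsb at -0.75 at the ends.

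Promoter windows are shown for 6 members, because they differ in the element that the MiT/TFE factors bind: Gpnmb, the member with the largest change, Lamp1 and Ctsd, which hold several copies, Grn, which holds the related element of MITF targets, and Arsb and Ids, which fell. Each window runs from 250 bases before to 50 bases after the annotated start, 5′ to 3′ on the strand of the gene, from RefSeq on GRCm38.p6. Capitals mark CACGTG, which reads the same on both strands, and TCATGTG or its reverse complement CACATGA. The windows are chr6:49036268-49036567 (plus strand) for Gpnmb, chr8:13158911-13159210 (plus) for Lamp1, chr7:142387778-142388077 (minus) for Ctsd, chr11:102430257-102430556 (plus) for Grn, chr13:93771429-93771728 (plus) for Arsb and chrX:70365036-70365335 (minus) for Ids.
Gpnmb: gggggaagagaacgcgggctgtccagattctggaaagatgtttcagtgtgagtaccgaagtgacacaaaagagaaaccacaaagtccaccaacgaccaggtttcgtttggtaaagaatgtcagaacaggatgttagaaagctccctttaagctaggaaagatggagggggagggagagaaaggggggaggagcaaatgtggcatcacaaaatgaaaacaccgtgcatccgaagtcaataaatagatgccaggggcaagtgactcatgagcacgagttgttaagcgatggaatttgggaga
Lamp1: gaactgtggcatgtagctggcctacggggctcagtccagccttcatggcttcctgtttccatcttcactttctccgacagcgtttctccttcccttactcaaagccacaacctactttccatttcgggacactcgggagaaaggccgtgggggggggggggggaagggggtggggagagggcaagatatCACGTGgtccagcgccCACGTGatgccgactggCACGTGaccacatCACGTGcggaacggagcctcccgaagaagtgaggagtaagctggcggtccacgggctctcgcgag
Ctsd: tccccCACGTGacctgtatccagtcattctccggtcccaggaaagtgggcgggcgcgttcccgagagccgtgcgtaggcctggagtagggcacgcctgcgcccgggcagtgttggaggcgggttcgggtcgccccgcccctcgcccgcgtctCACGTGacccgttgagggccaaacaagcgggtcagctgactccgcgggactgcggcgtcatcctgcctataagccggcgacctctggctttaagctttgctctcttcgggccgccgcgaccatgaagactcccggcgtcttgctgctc
Grn: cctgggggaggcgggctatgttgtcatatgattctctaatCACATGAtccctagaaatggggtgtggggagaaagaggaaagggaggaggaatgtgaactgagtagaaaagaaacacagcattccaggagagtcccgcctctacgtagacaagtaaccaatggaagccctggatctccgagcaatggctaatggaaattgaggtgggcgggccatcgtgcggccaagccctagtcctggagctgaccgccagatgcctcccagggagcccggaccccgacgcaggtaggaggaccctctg
Arsb: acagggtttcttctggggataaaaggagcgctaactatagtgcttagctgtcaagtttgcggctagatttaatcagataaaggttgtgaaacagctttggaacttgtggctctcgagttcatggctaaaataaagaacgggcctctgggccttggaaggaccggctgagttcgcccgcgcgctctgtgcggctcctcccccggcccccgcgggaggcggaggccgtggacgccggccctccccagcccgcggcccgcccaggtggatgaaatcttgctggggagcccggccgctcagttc
Ids: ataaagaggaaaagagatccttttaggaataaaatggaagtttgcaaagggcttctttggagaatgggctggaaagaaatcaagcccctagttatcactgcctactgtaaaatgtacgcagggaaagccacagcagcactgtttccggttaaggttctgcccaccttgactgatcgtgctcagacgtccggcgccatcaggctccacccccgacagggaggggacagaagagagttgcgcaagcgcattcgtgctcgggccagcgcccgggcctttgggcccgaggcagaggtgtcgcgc

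The Lamp1 window held 4 copies of CACGTG, starting 61, 45, 28 and 15 bases before the start. The Ctsd window held 2, starting 245 and 98 bases before it, and the Grn window held 1 copy of the TCATGTG element, starting 210 bases before it. Neither element was in the windows of Gpnmb, Arsb or Ids, which says only that these letters are not there. RefSeq windows were found for 38 of the 45 genes, 45 windows in all. CACGTG was in 14 of those 45 windows (31.1%), against 2349 of 32851 windows of the same length over all genes (7.15%). It was in the windows of 8 of 17 genes called higher, 0 of 3 called lower and 6 of 16 not called. TCATGTG was in 4 windows (8.89%), those of Ctsa, Ctss, Grn and Gla, against 3.77% of all windows, and no copy overlapped a copy of the other element in these genes. A match is a sequence description and not a binding site.

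Gpnmb was higher in Cre in 4 of 4 pairs. The gene (ENSMUSG00000029816, GRCm38 chromosome 6, plus strand) spans 49036615 to 49070929. Its values were 20425, 2451, 2699 and 2562 normalised reads in Cre libraries 1 to 4, against 12584, 535, 544 and 648 in GFP libraries 1 to 4. Replicate 1 was far above the rest in both groups, so the groups overlapped, while in replicates 2 to 4 every Cre library was above every GFP library.

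The log2 change was 1.80 ± 0.20 (SE, n = 4 pairs; paired limma, adjusted p = 8.51e-05), or 3.47-fold. The ratio of Cre to GFP was 1.62 in replicate 1, and 4.58, 4.96 and 3.95 in replicates 2, 3 and 4. On the linear scale the order was the other way, with a Cre minus GFP difference of 7841 reads in replicate 1 and of 1916, 2155 and 1914 reads in the others. Without replicate 1, the pair with the smallest ratio, the log2 change was 2.16 (paired limma, adjusted p = 2.59e-09). Leaving out replicate 2, 3 or 4 instead gave 1.66, 1.62 and 1.73 (paired limma, adjusted p = 4.94e-04, 0.00265 and 6.87e-04). The unpaired limma fit, in which the gap of replicate 1 counts as spread, gave an adjusted p of 0.474. In exact tests of the single gene, flipping the signs of the 4 pair differences gave a two-sided p of 0.125, the smallest that 16 arrangements allow. An exact permutation of the group labels over 8 libraries gave a two-sided p of 0.314, where 0.0286 is the smallest.

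Gpnmb and Cd68 are also abundant in macrophages. Of 16 macrophage markers looked for, 7 had a row, and their summed level was 84 to 155 normalised reads in Cre and 59 to 129 in GFP, higher in Cre in 4 of 4 pairs. Of the 2 that could be tested, Mrc1, the mannose receptor, was called higher (log2 change 0.72, paired limma, adjusted p = 0.0179), and Cd14, an endotoxin receptor, had a log2 change of -0.20 and was not called. Itgam was at 0 in 1 Cre and 3 GFP libraries, Cx3cr1 at 0 in 2 GFP libraries and Fcgr1 at 0 in 1 GFP library. Ptprc, Adgre1 and the C1q genes, with 4 more, were not analysed here. The part of such cells in these results was not tested. In bulk RNA more cells of a type and more RNA per cell cannot be told apart.

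**Figure D2:**
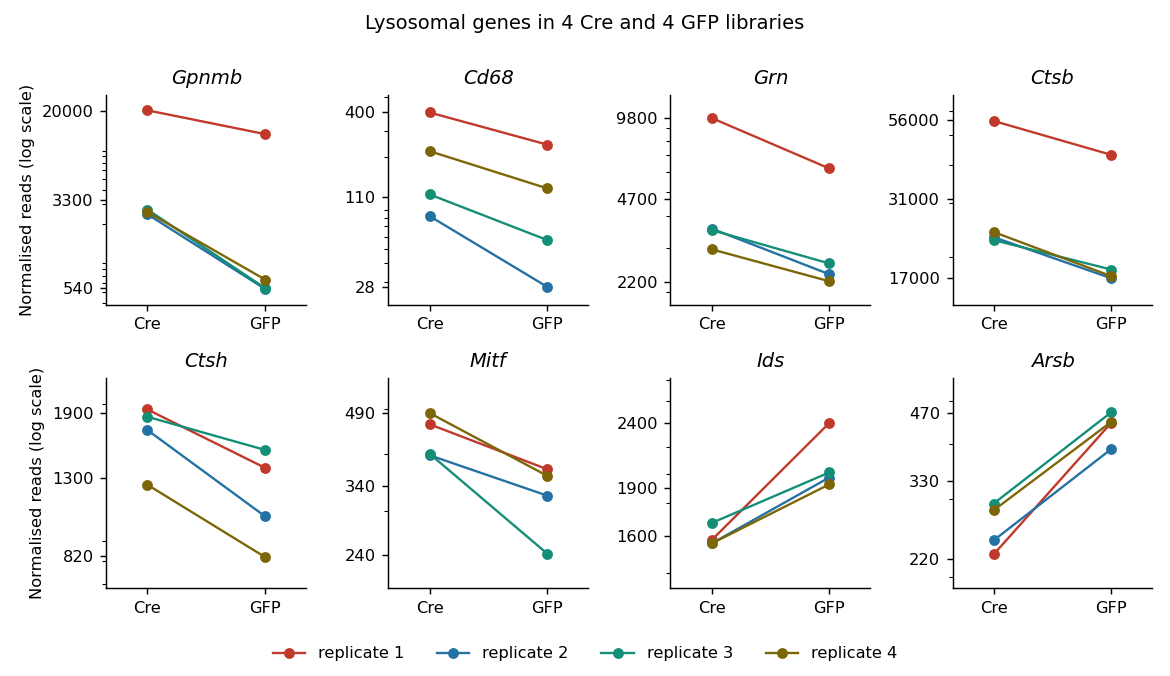
Normalised reads (log axis, own range per panel) of 8 lysosomal genes in the Cre and GFP libraries, with lines joining libraries of the same number. Gpnmb, Grn and Ctsb lie far higher in replicate 1 than in the other replicates, and Cd68 is highest in replicate 1 with replicate 4 next. All 4 lines of each of these genes fall towards GFP, while those of Ids and Arsb climb towards GFP.

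Of the 7 membrane proteins, all tested, 4 rose (57.1%) and 0 fell, beside 22.2% and 21.7% of all genes. Cd68, a LAMP family protein of endosomes and lysosomes, had 396, 82, 114 and 220 normalised reads in Cre libraries 1 to 4, against 243, 28, 57 and 125 in GFP libraries 1 to 4. Its groups overlapped, and every Cre library was above the GFP library of its number. The log2 change was 1.00 ± 0.15 (SE; paired limma, adjusted p = 3.69e-04), 2.01-fold, and 1.11 without replicate 1. Lamp1 and Lamp2, the main proteins of the lysosomal membrane, rose by 0.29 ± 0.04 and 0.27 ± 0.04 on the log2 scale (SE). Lamp1, Glb1, Ctsa and Atp6v1h each overlap other genes of the table, of which Tmppe, within Glb1, was the most abundant at a mean of 222 reads. Cd63, a tetraspanin of late endosomes, had a log2 change of 0.05 ± 0.05, and neither it nor Npc1, the membrane cholesterol transporter, nor Mcoln1, a calcium channel, passed the test.

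Of the cathepsins, the proteases of the lysosome, 5 of 7 tested were called higher (71.4%) and 0 lower, beside 22.2% and 21.7% of all genes. Ctsb, a cysteine cathepsin, had 55697, 23192, 22692 and 24120 normalised reads in Cre libraries 1 to 4, against 43145, 17016, 18172 and 17287 in GFP libraries 1 to 4. Replicate 1 was again the highest in each group, and the pairs differed by 1.25 to 1.40 times. The log2 change of Ctsb was 0.40 ± 0.05 (SE; paired limma, adjusted p = 8.19e-05). Its gene overlaps Fdft1 on the opposite strand, at a mean of 882 reads.

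Ctsd, the aspartic cathepsin, had 41852, 23268, 20799 and 17813 normalised reads in Cre, against 35186, 18060, 17794 and 11861 in GFP, and every pair was higher in Cre. Its log2 change was 0.36 ± 0.06 (SE). Ctsh, an aminopeptidase, had 1937, 1717, 1856 and 1247 reads in Cre, against 1377, 1037, 1529 and 817 in GFP. Replicate 1 did not stand apart for Ctsh, and replicate 4 was the lowest in both groups. The log2 change of Ctsh was 0.53 ± 0.07 (SE; paired limma, adjusted p = 1.90e-04).

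Ctsl, a further cysteine protease, rose by 0.22 ± 0.04 on the log2 scale. Ctsa, the carboxypeptidase that shields β-galactosidase and sialidase in 1 complex with them, rose by 0.12 ± 0.04 (SE; paired limma, adjusted p = 0.0427), and its call was lost in 6 of 11 other paired fits, among them those without replicate 2, 3 or 4 (adjusted p up to 0.175). Ctsf and Ctsz, both cysteine cathepsins, were not called, and reads of Ctsz cannot be told from those of the overlapping Nelfcd if strand was not used.

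Among the 15 glycosidases and sulfatases the directions were split, with 4 higher, 2 lower and a median log2 change of 0.0004. The share called higher was 26.7%, close to the 22.2% of all genes, and that called lower was 13.3%, beside 21.7%. The increases were small and alike. Neu1, the sialidase, Gla, the α-galactosidase, Hexa, a subunit of β-hexosaminidase, and Glb1, the β-galactosidase, rose by 0.23 ± 0.06, 0.23 ± 0.06, 0.22 ± 0.05 and 0.21 ± 0.05 on the log2 scale (SE). The call of Neu1 was lost when replicate 2 or 4 was left out (paired limma, adjusted p up to 0.0643). The 9 others lay between -0.16 and 0.12.

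The 2 decreases were sulfatases that act on sulfated glycosaminoglycans, and for both of them the Cre and GFP libraries did not overlap. Arsb, arylsulfatase B (chromosome 13, 93771630 to 93943016, plus strand), had 225, 242, 293 and 283 normalised reads in Cre libraries 1 to 4, against 446, 389, 471 and 448 in GFP libraries 1 to 4. Replicate 1 was not the highest in either group. The log2 change was -0.75 ± 0.08 (SE; paired limma, adjusted p = 7.40e-05), a Cre level 0.594 times that of GFP, and the unpaired limma fit called it too (adjusted p = 0.0352).

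Ids, iduronate sulfatase, on the X chromosome, had 1575, 1556, 1675 and 1556 normalised reads in Cre, against 2400, 1973, 2009 and 1925 in GFP. The Cre libraries lay close together and below all GFP libraries. The log2 change was -0.38 ± 0.06 (SE; paired limma, adjusted p = 6.21e-04), and the unpaired limma fit gave an adjusted p of 0.0870.

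Of the 6 lipid-handling enzymes and soluble cofactors, 3 rose (50%) and 1 fell (16.7%), beside 22.2% and 21.7% of all genes. Grn encodes progranulin, a secreted glycoprotein that is cut into granulins in the lysosome (chromosome 11, 102430315 to 102436809, plus strand). It had 9843, 3578, 3530 and 2960 normalised reads in Cre libraries 1 to 4, against 6205, 2357, 2601 and 2210 in GFP libraries 1 to 4. Apart from replicate 1, all Cre libraries were above all GFP libraries. The log2 change was 0.53 ± 0.05 (SE; paired limma, adjusted p = 3.04e-05), 1.45-fold, and 0.49 without replicate 1.

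Psap, the precursor of the saposins, and Smpd1, the acid sphingomyelinase, rose by 0.15 ± 0.05 and 0.16 ± 0.05 on the log2 scale, and each lost its call when replicate 2 or 4 was left out (paired limma, adjusted p up to 0.124 and 0.131). Lipa, the acid lipase, fell by 0.30 ± 0.05 on the log2 scale (SE; paired limma, adjusted p = 0.00133). Npc2, which binds cholesterol in the lumen, had a log2 change of -0.03 ± 0.05, and Asah1, the acid ceramidase, of 0.09 ± 0.05, and neither was called.

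Of 4 proton pump genes tested, 3 rose, beside 22.2% of all genes, and the accessory subunit Atp6ap1 was not called. Atp6v1h, a regulatory subunit of the catalytic part, had 6933, 3417, 3060 and 2945 normalised reads in Cre libraries 1 to 4, against 5006, 2738, 2423 and 2392 in GFP libraries 1 to 4. It was higher in Cre in every pair, with a log2 change of 0.36 ± 0.04 (SE; paired limma, adjusted p = 1.48e-04). Atp6v1a, a catalytic subunit, rose by 0.24 ± 0.04.

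The d subunit of the membrane part comes from a pair of genes. Atp6v0d1, the broadly used form, had 4545, 2535, 2253 and 2195 normalised reads in Cre libraries 1 to 4, against 3933, 2151, 1898 and 1768 in GFP libraries 1 to 4, a log2 change of 0.25 ± 0.04 (SE). Atp6v0d2, the form of osteoclasts and some epithelia, had 353, 2, 2 and 27 reads in Cre, against 418, 2, 2 and 32 in GFP. It was thus nearly confined to the replicate 1 libraries of both groups, where it was not higher in Cre, and it was not tested. Ctsk, the cathepsin of osteoclasts, had the same 2 replicates on top at far lower values, with 18, 0, 1 and 9 reads in Cre libraries 1 to 4, against 11, 1, 1 and 7 in GFP libraries 1 to 4. Of 8 osteoclast markers 7 had a row, and their summed level was 1190 to 1499 in Cre and 1194 to 1578 in GFP. Most of that sum came from Nfatc1 and Itgb3, which other cells express as well and which were not called, while Mmp9, a secreted protease, was called higher (log2 change 1.69). The part of osteoclast-like cells was not tested.

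Of the MiT/TFE factors, Mitf alone rose. Mitf (chromosome 6, 97807052 to 98021349, plus strand) had 464, 397, 400 and 491 normalised reads in Cre libraries 1 to 4, against 370, 324, 242 and 358 in GFP libraries 1 to 4. The groups did not overlap, and replicate 1 did not stand apart. The log2 change was 0.45 ± 0.09 (SE; paired limma, adjusted p = 0.00211), 1.36-fold, and the unpaired limma fit gave an adjusted p of 0.217.

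Tfe3 had 2271, 1951, 2001 and 2094 normalised reads in Cre, against 2385, 1845, 1892 and 1959 in GFP, a log2 change of 0.05 ± 0.05 that was not called. Tfeb had 74, 142, 136 and 87 reads in Cre, against 95, 146, 139 and 94 in GFP, a log2 change of -0.13 ± 0.12 that was not called. It was lower in replicates 1 and 4 than in replicates 2 and 3 in both groups. Per kilobase of annotated exon the factors differed in level: Tfe3 had 225 normalised reads per kb in Cre and 218 in GFP, Mitf 70.7 in Cre and 52.2 in GFP, and Tfeb 19.4 in Cre and 20.9 in GFP. On the same per-kb scale the most abundant members were Ctsd, at 11031 in Cre and 8816 in GFP, and Psap, at 10158 in Cre and 9267 in GFP.

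For most of these genes the difference between replicates was larger than that between groups. Replicate 1 was the highest of both groups for 36 of 42 genes, beside 24.3% of all genes, and the lowest of both for 0. Replicate 4 was the highest of both for 0 of 42, while 23.7% of all genes were highest there. The ratio of replicate 1 to the mean of the other replicates, taken on the log2 scale over both groups, had a median of 1.62 over the 42 genes and 1.00 over all genes. Gpnmb had the widest gap of the tested members at 13.2-fold, followed by Cd68 at 3.56-fold, Gla at 3.46-fold and Grn at 2.77-fold. For 38 of 42 genes this gap was larger in size than the log2 change between Cre and GFP (90.5%, beside 61.3% of all genes).

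The 6 genes for which replicate 1 was not the highest in both groups were the MiT/TFE factors Tfeb and Mitf, the sulfatases Arsb and Ids, Idua, which encodes iduronidase, and Ctsh. Myog, a marker of myoblast differentiation, was lowest in replicate 1 in each group, at 13513 reads in Cre and 8884 in GFP. It was picked from 8 muscle stem cell and myoblast markers after their values were seen. Its part in the gap was not tested. The summed level of the 8 muscle stem cell and myoblast markers was 116167 to 140615 in Cre and 101331 to 123528 in GFP, with 3 called higher and 3 lower. Replicate 1 was the highest of both groups for 1 of the 8. Their median log2 difference of replicate 1 from the other replicates was -0.28.

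**Figure D3:**
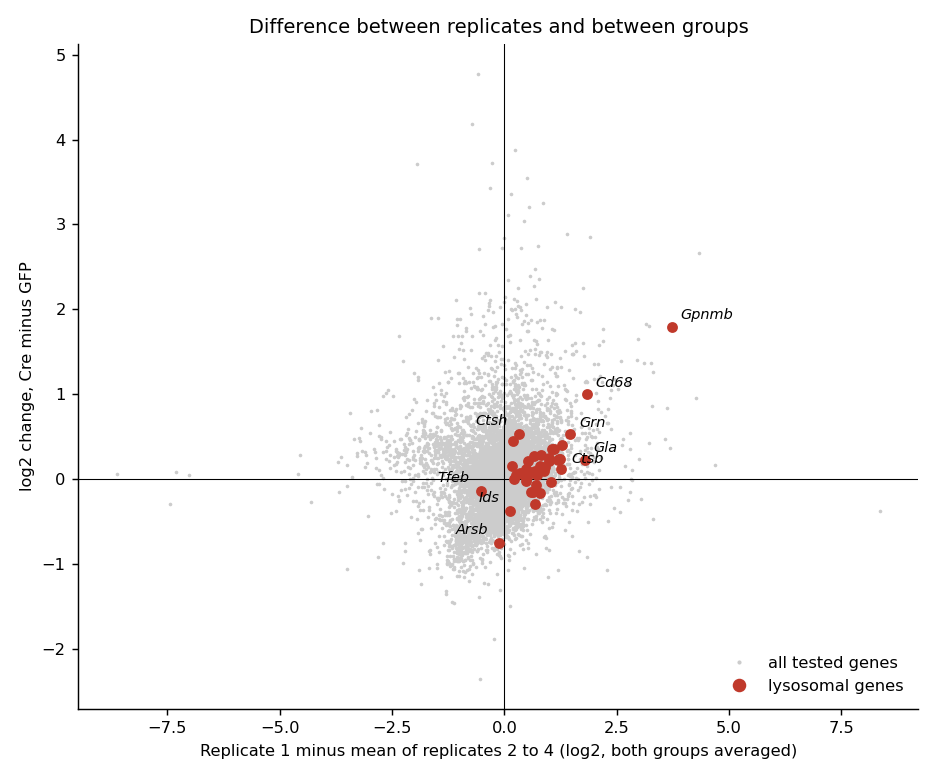
Log2 change between Cre and GFP (vertical) against the log2 difference of replicate 1 from the mean of replicates 2 to 4 (horizontal, averaged over both groups), for all 12910 tested genes (grey) and the 42 lysosomal genes (red). Most red points lie right of 0, with Gpnmb at 3.72 across and 1.80 up, and Arsb and Tfeb lie left of 0.

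Together the 44 genes took 1.36, 0.702, 0.722 and 0.705% of the normalised reads in Cre libraries 1 to 4, against 1.20, 0.607, 0.646 and 0.594% in GFP libraries 1 to 4. The Cre share was 1.14, 1.16, 1.12 and 1.19 times the GFP share in replicates 1 to 4, so the pairs were close in ratio although replicate 1 had the largest share in each group. Without Gpnmb the shares were 1.29, 0.693, 0.712 and 0.696% in Cre, against 1.16, 0.605, 0.644 and 0.592% in GFP. The 5 most abundant genes made up 50.1 to 54.4% of the sum in Cre and 47.8 to 52.5% in GFP.

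**Figure D4:**
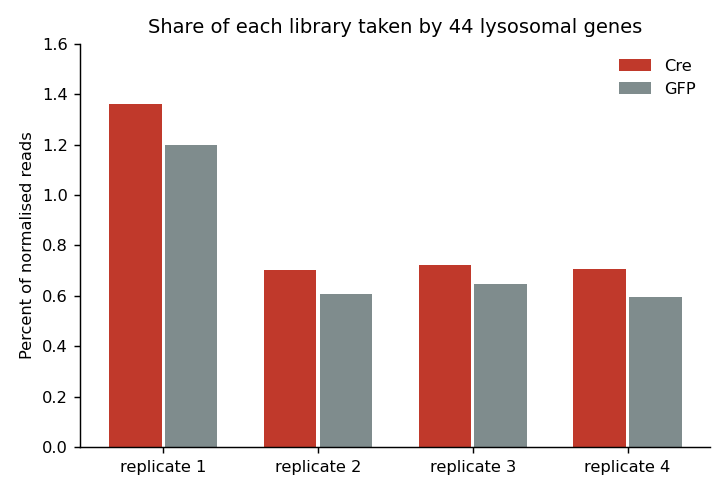
Percent of each library's normalised reads taken by the 44 lysosomal genes, with Cre (red) left of GFP (grey) for each replicate number. Each Cre bar is above its GFP bar, and both replicate 1 bars, at 1.36% and 1.20%, are above all others.

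Other genes of the lysosome, on lists that share no gene with the 45, also held more increases than decreases in the paired limma fit. These lists were read from the same 8 libraries and chosen with earlier results of these data known, so they are no separate check. Over other hydrolases, other membrane and transport proteins and other pump subunits, 36 of 74 tested rose and 9 fell, with a median log2 change of 0.15, and replicate 1 was the highest of both groups for 54 of them. Among 16 other pump subunits 12 rose and 1 fell. Atp6v1c2 rose by 0.72, Atp6v0c, the proteolipid of the rotor, by 0.49 and Atp6v1g1 by 0.37 on the log2 scale, and Atp6v0e2 changed by -0.60.

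Among 37 other hydrolases 16 rose and 6 fell. Man2b2, an α-mannosidase, Hyal1, a hyaluronidase, and Smpdl3a, a phosphodiesterase, rose by 0.69, 0.67 and 0.67 on the log2 scale. Ggh, which trims folate polyglutamates, changed by -0.71. Hyal1 overlaps Hyal3 and Nat6 on the same strand, so its reads are uncertain. Of the other genes named from these lists, Atp6v1c2, Mfsd8, Sort1, Igf2r, Gnptab, Atg9b and Sqstm1 also overlap a gene of the table, and their reads may be shared with it.

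Of 21 other membrane proteins 8 rose and 2 fell. Laptm5, a lysosomal protein known from blood cells, had 1300, 1744, 2708 and 1359 normalised reads in Cre libraries 1 to 4, against 377, 566, 991 and 314 in GFP libraries 1 to 4. Its groups did not overlap and, unlike for Gpnmb, replicate 1 did not stand apart. The log2 change of Laptm5 was 1.74 ± 0.09 (SE; paired limma, adjusted p = 1.30e-06), and the unpaired limma fit gave an adjusted p of 0.0867. Ctns, the cystine exporter, rose by 0.37 and Ostm1, a partner of a chloride transporter, by 0.33 on the log2 scale, while Mfsd8 changed by -0.37.

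Of 10 genes that sort enzymes to the lysosome, 4 rose and 2 fell. The receptors Sorl1, Sort1 and Igf2r rose by 0.74, 0.48 and 0.44 on the log2 scale, and Gnptab, which makes the mannose phosphate tag, changed by -0.28. Of 20 genes of mTORC1 control at the lysosome, 8 rose and 1 fell. Rragb and Rragd, GTPases that bring mTORC1 to the membrane, rose by 0.84 and 0.54, Flcn, which acts on such GTPases, rose by 0.22, and the subunit Mlst8 changed by -0.37. Rragb was the gene of these lists called in the unpaired limma fit too (adjusted p = 0.0390).

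Of 30 autophagy genes 12 rose and 1 fell. Atg9b, a vesicle protein, Sqstm1, the cargo receptor p62, Gabarap and Map1lc3a rose by 1.05, 0.38, 0.35 and 0.32 on the log2 scale. Of 5 tested inhibitors of cathepsins, Serpinb1a was called, with a log2 change of 0.41. These lists carry no test of their own, and the shares of all genes called higher (22.2%) and lower (21.7%) are the measure they stand beside.

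**Figure D5:**
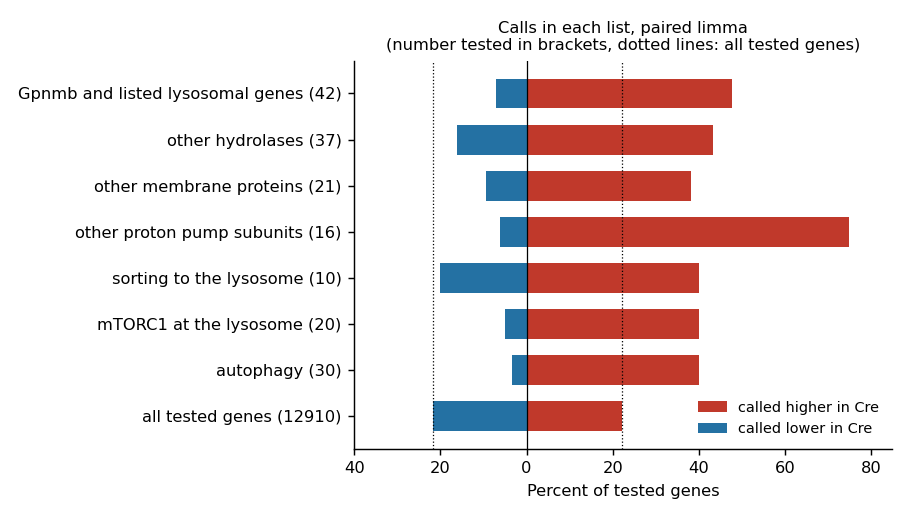
Percent of the tested genes of each list called higher (right) and lower (left) in Cre by the paired limma fit, with the number tested in brackets and all 12910 genes at the bottom. Every list drawn, the cathepsin inhibitors (20.0% higher) left out, lies past the right dotted line of all genes (22.2%) and short of the left one (21.7%), with 75.0% of the other pump subunits called higher.

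Markers of other cells were also summed in each library. For endothelial cells 6 of 7 markers had a row, summing to 283 to 413 normalised reads in Cre and 144 to 184 in GFP, and Tek, a receptor of angiopoietins, was called higher (log2 change 1.46), while Pecam1, an adhesion protein and the other marker tested, had a log2 change of 0.24 and was not called. For fibroblasts 5 of 8 had a row, summing to 4325 to 8386 in Cre and 3020 to 6158 in GFP, nearly all of it Gsn, which many cells express. Of the 3 fibroblast markers tested, 2 were called higher, Col15a1, a basement membrane collagen (log2 change 0.89), and Gsn (0.63), while Pdgfra, the growth factor receptor, had a log2 change of 0.04 and was not called. Dcn, a defining fibroblast marker, had 1 to 17 reads in Cre and 1 to 22 in GFP, with its highest value in replicate 1 of each group. Of 8 melanocyte markers Pmel, the closest relative of Gpnmb, had a row, at 7 to 21 reads in Cre and 10 to 22 in GFP. The part of such cells in the lysosomal results was not tested.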

How the data were processed

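The 8 libraries of total RNA are stranded, per the labels' protocols. The submitters' processing notes name STAR 2.5.3a, featureCounts 1.5.3 (Subread), DESeq, mm10 and GRCm38. The annotation release is not given in the sources used here, nor is the use of strand in counting. The table deposited by the authors holds whole numbers that are not raw counts: they had been scaled between libraries and rounded, and are treated as a score. Original depth, estimated from the spacing of low values, was 26.3 to 30.4 M reads in Cre and 23.3 to 38.0 M in GFP, so counting error is small for most members and the spread between libraries sets the precision.

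Genes reaching 1 CPM in at least 4 libraries were tested with limma 3.58.1 in R 4.3.3 (intensity trend, log2 of value plus 1, replicate number as block), adjusted by Benjamini-Hochberg over 12910 genes at 0.05, two-sided. The log2 of value plus 1 understates the change of low genes. The block, set beforehand, follows the deviations of same-numbered libraries (lowest correlation 0.792, limit 0.1). Some other-numbered pairs passed that limit too, up to 0.550. The code was tested on simulated data. Alternatives were pseudocounts of 0.1 and 5, no filter and 5 CPM, equal totals, equal upper quartiles, voom, no block, and leaving out each pair. Python 3.11.15 with pandas 2.3.3 and scipy 1.17.1 made tables and figures. Exon lengths and overlaps come from GENCODE on GRCm38 and promoters from RefSeq. Of the tested members, 11 overlap another gene of the table.

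Members, lists and tests were chosen with earlier results of these data known. Values per library are given for Gpnmb, the MiT/TFE factors, both Atp6v0d genes and the 10 called members with the largest absolute change, and of each other list up to 4 called genes with the largest change are named. Other members, Laptm5 by library and single markers were named after their values were seen. A ranking of genes by likeness to Gpnmb was left out, since the libraries fall into replicate 1 and the others.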

Additional observations from a re-analysis of the deposited data

Results flagged for a closer look

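In each group of 4 libraries, the gap of the highest or lowest library to its neighbour was divided by the range of the group on the log2 scale, and values above Dixon's 95% critical value are given here. Of 90 groups examined (44 lysosomal genes and Chd4, in Cre and in GFP), 19 passed. Chance alone passes about 1 in 20 independent groups, but members moved together, so these groups are not independent. The share over all genes was not measured. Of the 19, 17 had replicate 1 as the highest library, and 7 genes passed in both groups.

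The ratio for replicate 1 was 0.955 in Cre and 0.939 in GFP for Gpnmb, 0.932 in Cre and 0.929 in GFP for Ctsb, and 0.898 in Cre and 0.861 in GFP for Gla. It was 0.887 in Cre and 0.879 in GFP for Neu1, 0.848 in Cre and 0.911 in GFP for Psap, 0.842 in Cre and 0.842 in GFP for Grn, and 0.830 in Cre and 0.840 in GFP for Ctsa. In GFP alone, replicate 1 passed for Npc2 at 0.975, Cd63 at 0.925 and Asah1 at 0.874. The remaining genes were Ids, where Cre replicate 3 was the highest at a ratio of 0.835, and Smpd1, where Cre replicate 4 was the lowest at 0.838. The cause of the replicate 1 pattern was not tested.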

How the results depend on the processing

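Leaving out the replicate block changed the results most. All genes called then numbered 108 higher and 32 lower, against 2861 and 2804 in the paired limma fit. Members numbered 0 higher and 1 lower, against 20 and 3. An unadjusted p under 0.05 in the unpaired fit was reached by 2 members higher and 2 lower, beside 956 and 1201 of all 12910 genes. Gpnmb kept its log2 change of 1.80 with an adjusted p of 0.474 (unpaired limma). Voom with the block called 6 members lower, adding Arsa, Manba and Man2b1 to the 3. It also called more of all genes lower, 3199 against 2804. With equal totals 4 members were lower, adding Manba, beside 3153 of all genes. Leaving out each pair in turn gave 2238 to 2648 genes higher and 2100 to 2379 lower, 16 to 21 members higher and 3 lower each time, a Chd4 log2 change of -1.99 to -1.75 and a Gpnmb log2 change of 1.62 to 2.16.

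Of the 23 called members, 19 kept their call in all 11 paired alternatives. The call of Ctsa was lost without the filter, with equal totals, with voom and without replicate 2, 3 or 4 (limma adjusted p up to 0.175), and those of Neu1, Psap and Smpd1 without replicate 2 or 4 (up to 0.0643, 0.124 and 0.131). Genes near 0 changed sign: Idua gave -0.0203 with equal totals, -0.0172 with voom, -0.0278 without replicate 1 and -0.0110 without replicate 4, Galns 0.0384 without replicate 3, and Npc2 0.0117 without replicate 1. Over the fits that left out a pair, Idua ranged from -0.0278 to 0.0247, Galns from -0.0586 to 0.0384 and Npc2 from -0.0877 to 0.0117. The cause of these changes was not tested. Depth does not limit most members, but Atp6v0d2 and Ctsk were too low to test.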
